A study of Drosophila melanogaster with 4 samples.

Results

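The regions described here are the H3K9ac clusters on chromosome 4, on the heterochromatic scaffolds, on the unplaced sequence U, and in the assembled 1 Mb nearest the centromere of the arms X, 2L and 3L. A cluster is a stretch that the authors called enriched after chromatin immunoprecipitation and sequencing (ChIP-seq) for histone H3 acetylated at lysine 9. Members were taken by position alone, and 275 of the 12322 clusters of the series-wide list met the rule: 88 on chromosome 4, 56 on the heterochromatic scaffolds, 23 on U and 108 in the arm ends. The boundaries of the arm ends were starts above 21422827 on X, 22011544 on 2L and 23543557 on 3L. All positions are in FlyBase release 5, per the file headers, and are counted from 1. The other 12047 clusters lie on the remainder of X, 2L, 2R, 3L and 3R and are called the rest of the arms below. The centromere-side ends of 2R and 3R are part of that remainder.

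The material was wild-type Drosophila melanogaster embryos of the strain Oregon-R (Oregon-R-modENCODE), collected 14 to 16 h after laying by the labelled stage. The series holds 2 ChIP samples made with an H3K9ac antibody and 2 input samples made with none, all from formaldehyde-fixed embryos of this one genotype and stage. Each ChIP replicate has its own cluster list, with 8495 clusters in replicate 1 and 6772 in replicate 2. Nothing in the labels ties the replicates to different collections of embryos, and their spread may therefore be technical. Whole embryos mix many cell types, and fewer cells with the mark or less of it per cell cannot be told apart. Read depth is unknown.

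As background, H3K9ac sits on nucleosomes at the promoters of transcribed genes, and the same lysine carries methyl groups in heterochromatin, where the protein HP1a binds it. Acetyl and methyl groups cannot occupy one lysine at the same time. Pericentric heterochromatin is rich in repeats and poor in genes, but some genes, such as light near the base of 2L, lie within it and are transcribed there. Chromosome 4, the dot chromosome, is unusual in that it is packaged with HP1a and methylated H3K9 over most of its length while its genes, among them cubitus interruptus and eyeless, are active. U gathers contigs with no known place, so neighbours on it need not be neighbours in the genome. In release 5 the scaffolds 2LHet, 2RHet, 3LHet, 3RHet, XHet and YHet hold heterochromatic sequence assigned to a chromosome. The label heterochromatin rests on this naming, and no heterochromatin mark was measured in these samples.

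H3K9ac clusters were sparse on each of these classes compared with the rest of the arms, and by very different degrees. On chromosome 4 the replicates covered 10.3% and 10.8% of bases, in the arm ends 4.90% and 3.75%, on the scaffolds 0.953% and 0.990%, and on U 0.212% and 0.255%. The rest of the arms had 21.0% in replicate 1 and 14.7% in replicate 2. Relative to the rest of the arms in the same list, coverage was 0.610 ± 0.171 on chromosome 4, 0.244 ± 0.0154 in the arm ends, 0.0563 ± 0.0155 on the scaffolds and 0.0137 ± 0.00513 on U (mean ± SD, n = 2 replicates). Every one of these ratios was below 1 in both replicates. The arm-end ratio depends on where the end is set, and was 0.439 for ends of 2 Mb. On U the ratio was 0.0208 for clusters from the median score up. An exact permutation test over 2 replicates cannot give a two-sided p below 0.5, which is the value for each ratio, so no difference between classes is called and the values stand with their SD. Sequence lengths were not corrected for how much of them short reads can be placed on, and the part of this in the low values was not tested.

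**Figure D1:**
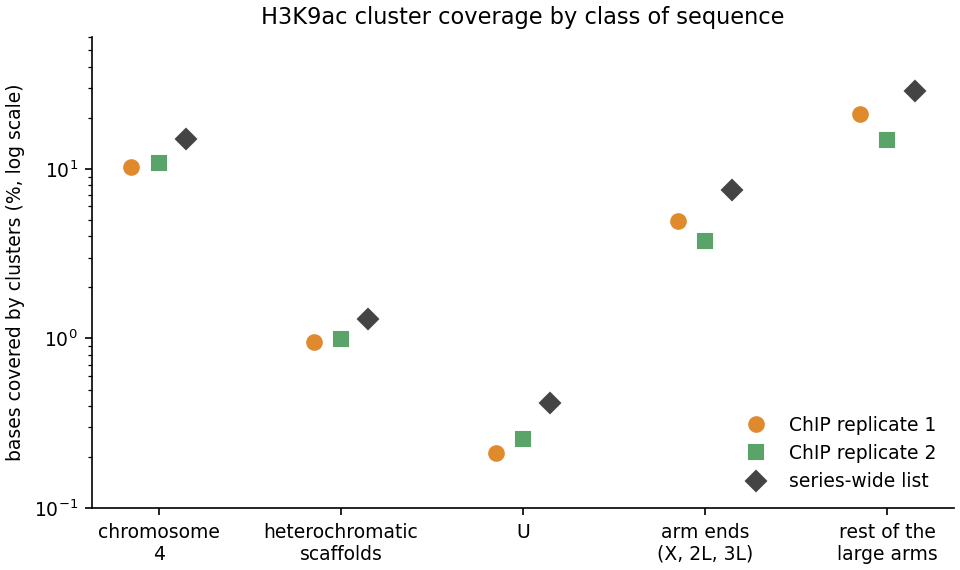
Share of bases covered by H3K9ac clusters (vertical axis, percent, log scale) in each class of sequence, with 1 point per list: ChIP replicate 1, ChIP replicate 2 and the series-wide list. Points of 1 class lie close together on this scale, and the classes run from 0.212% on U to 21.0% on the rest of the arms in replicate 1.

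The replicates differed in how chromosome 4, the scaffolds and U stood against the rest of the arms. Replicate 2 held fewer clusters than replicate 1 on the rest of the arms, 6604 against 8317, and fewer in the arm ends, 49 against 67. On chromosome 4, the scaffolds and U it held slightly more, 67 against 62, 39 against 38 and 13 against 11. The ratio of chromosome 4 coverage to the rest of the arms was 0.490 in replicate 1 and 0.731 in replicate 2. Coverage of chromosome 4 itself was 10.3% and 10.8%, while that of the rest of the arms was 21.0% and 14.7%. The ratio was also higher in replicate 2 on the scaffolds, at 0.0453 and 0.0672, and on U, at 0.0101 and 0.0173. In the arm ends it was 0.233 and 0.255. With replicate 1 shortened by score to as many clusters as replicate 2, an alternative added after seeing the data, its ratio for chromosome 4 was 0.410. Such a cut removes the lowest scores of the list. In replicate 1, 25.8% of chromosome 4 clusters were in the lowest 10% of scores, against 9.80% on the rest of the arms. The cut therefore lowers this ratio by itself, and it cannot show how list length bears on the gap to the 0.731 of replicate 2.

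Clusters of these classes were compact. Median widths in the series-wide list were 2109 bp on chromosome 4, 2188 bp on the scaffolds, 1957 bp on U and 1894 bp in the arm ends, close to the 2079 bp of the rest of the arms. The upper end of the widths differed: 9 of the 275 members were at least 4 kb wide, or 3.27% (95% Wilson interval 1.73 to 6.10%), against 16.0% over all clusters of the list. None of the 56 scaffold clusters and none of the 23 on U was that wide, with upper 95% Wilson bounds of 6.42% and 14.3%. The widest member was 6587 bp, while the rest of the arms reached 43329 bp. Intervals on shares of clusters cover counting error alone, and clusters are not replicates of a condition.

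At like width, clusters of the scaffolds, U and the arm ends scored above those of the rest of the arms. The score is the authors' own value per cluster, on a scale that the sources used here do not give. It is used to rank clusters within 1 list, and a percentile of 100 is the highest rank. Where scores of a cluster are given together, that of the series-wide list comes first, then replicate 1 and replicate 2. Among series-wide clusters from 2 kb to under 3.5 kb, the median score percentile was 90.7 for 32 scaffold clusters, 93.5 for 10 on U, 84.1 for 38 in the arm ends and 74.5 for 36 on chromosome 4, against 68.4 for 3708 on the rest of the arms. The same order against the arms held for 3 of these classes in each replicate. In replicate 1 the percentiles were 83.0 on the scaffolds, 88.7 on U and 80.5 in the arm ends against 62.5, and in replicate 2 they were 81.6, 99.3 and 80.5 against 63.5. Those on U rest on 6 clusters in replicate 1 and 7 in replicate 2. Chromosome 4 lay below the arms here, at 60.4 in replicate 1 and 52.3 in replicate 2, so its place against them differs between the lists. The width range was chosen after the widths and scores had been seen.

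**Figure D2:**
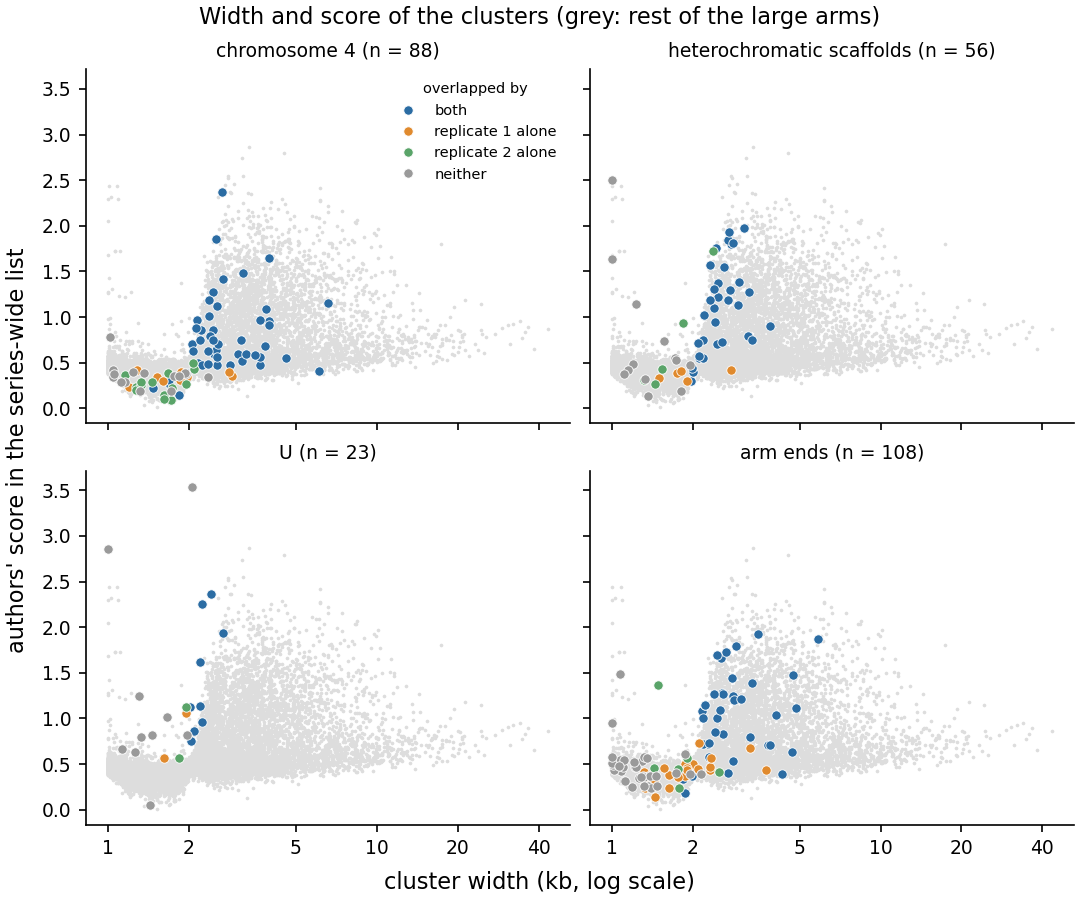
Width in kb (horizontal axis, log scale) and the authors' score in the series-wide list (vertical axis) of each cluster, in 1 panel per class. Colours show which replicates overlapped the cluster and grey dots are the rest of the arms. Members overlapped by both replicates are mostly wider than 2 kb, while those overlapped by neither are narrower and include the top score of 3.54 on U.

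Scores over all widths split these classes further. The median percentile within a replicate list was 77.6 ± 3.41 on the scaffolds, 93.6 ± 6.65 on U, 62.2 ± 4.13 in the arm ends and 36.6 ± 11.3 on chromosome 4 (mean ± SD, n = 2), with 49.8 ± 0.167 on the rest of the arms. For arm ends of 2 Mb and 0.5 Mb the percentile was 50.7 and 51.5, near that of the arms. The arms also differed within the 1 Mb ends, replicate 1 first. The percentile was 70.7 and 84.7 on 2L, 54.9 and 53.6 on X, and 17.9 and 45.7 on 3L, which had 5 and 6 clusters. Scaffold clusters were 25.3 points above the arms in replicate 1 and 30.3 in replicate 2, and for chromosome 4 the difference was -5.31 points in replicate 1 and -21.02 in replicate 2. The exact permutation p over the replicates was 0.5 for each class, the smallest that 2 samples allow. In the series-wide list, 10.0% of all clusters lie in the highest 10% of scores by construction, and the same share in the lowest 10%. Of the scaffold clusters, 19 of 56 were in the highest 10%, or 33.9% (95% Wilson interval 22.9 to 47.0%), and of those on U 7 of 23, or 30.4% (15.6 to 50.9%). In the arm ends 17 of 108 were, or 15.7% (10.1 to 23.8%). The replicate lists, replicate 1 first, had lower shares on the scaffolds, 8 of 38, or 21.1%, and 10 of 39, or 25.6%. On U they had 5 of 11, or 45.5%, and 8 of 13, or 61.5%, and in the arm ends 13.4% and 18.4%. Chromosome 4 was weighted to the other side in the series-wide list, with 22 of 88 in the lowest 10%, or 25% (17.1 to 35.0%), and 7 of 88 in the highest.

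**Figure D3:**
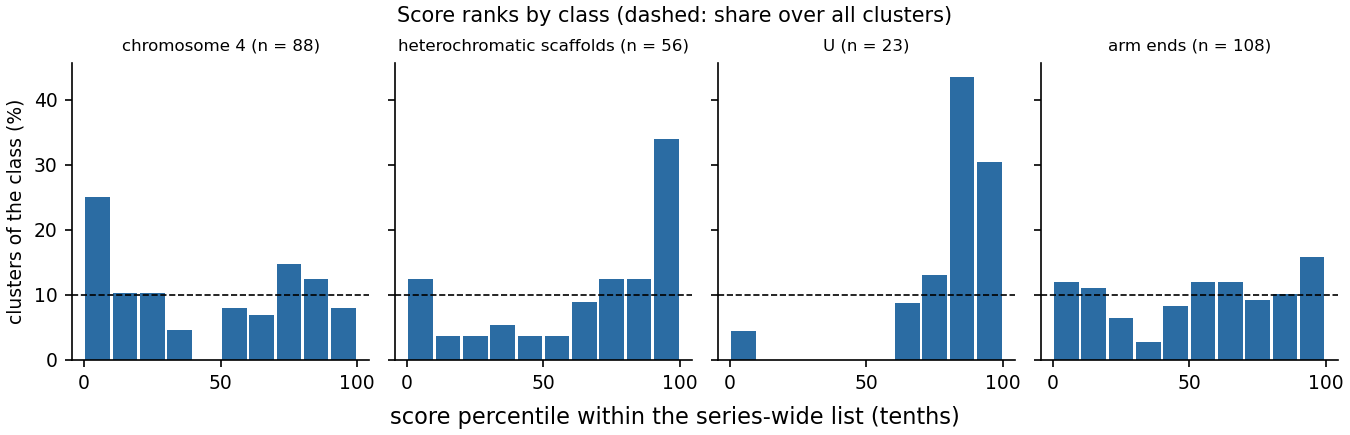
Share of the clusters of each class (vertical axis, percent) in each 10-point step of the score ranks of the series-wide list (horizontal axis, percentile). The dashed line is the share over all clusters, 10.0%. Scaffold and U clusters pile up at the right, and 25% of chromosome 4 clusters fall in the leftmost bar.

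Over all widths, recurrence in the replicates was highest on the scaffolds and chromosome 4. Both replicates overlapped 33 of the 56 scaffold clusters, or 58.9% (95% Wilson interval 45.9 to 70.8%), and 49 of the 88 on chromosome 4, or 55.7% (45.3 to 65.6%). This compares with 43.5% over all clusters of the list. Both overlapped 42 of 108 in the arm ends, or 38.9% (30.2 to 48.3%), and 9 of 23 on U, or 39.1% (22.2 to 59.2%), which are near that background. At widths from 2 kb to under 3.5 kb, every class was above the 68.7% of the rest of the arms. Both replicates overlapped 30 of 32 such clusters on the scaffolds, or 93.8%, and 9 of 10 on U, or 90%. On chromosome 4 it was 31 of 36, or 86.1%, and in the arm ends 29 of 38, or 76.3% (60.8 to 87.0%). Neither replicate overlapped 15 clusters of chromosome 4, or 17.0%, 13 of the scaffolds, or 23.2%, 37 of the arm ends, or 34.3%, and 10 of U, or 43.5%, beside 31.6% over all clusters. The series-wide and replicate lists belong to the same samples, so their overlap is no independent test.

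Taken replicate by replicate, the gap to the rest of the arms was small in replicate 1 and large in replicate 2. Replicate 1 overlapped 67.0% of the series-wide clusters of chromosome 4 and 67.9% of those on the scaffolds, beside 64.1% over all clusters. Replicate 2 overlapped 71.6% and 67.9%, beside 47.7%. The difference from the rest of the arms was 13.5 ± 15.0 percentage points on chromosome 4 and 12.04 ± 11.8 on the scaffolds (mean ± SD, n = 2), so the SD was as large as the difference. For the arm ends it was -3.50 ± 0.626 points and for U -7.99 ± 11.8 points. The exact permutation p was 0.5 for chromosome 4, the scaffolds and the arm ends and 1 for U, where the replicates had opposite signs.

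**Figure D4:**
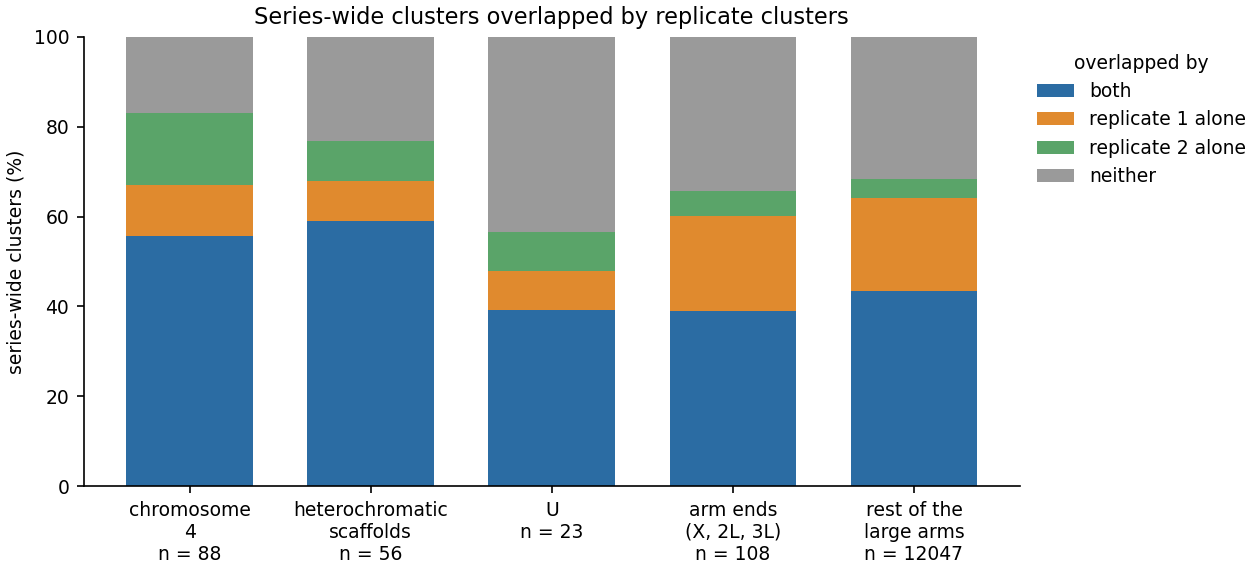
Share of the series-wide clusters of each class (vertical axis, percent) that were overlapped by both replicates, by replicate 1 alone, by replicate 2 alone or by neither. Chromosome 4 has the largest part from replicate 2 alone, 15.9%, and U the largest part from neither, 43.5%.

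Clusters that a single replicate held were divided differently on chromosome 4 than over the list. Replicate 2 alone overlapped 14 of its 88 clusters, or 15.9% (9.72 to 24.95%), against 4.27% over all clusters. Replicate 1 alone overlapped 10, or 11.4% (6.29 to 19.7%), against 20.6%. The scaffolds and U leaned the same way. On the scaffolds each replicate alone overlapped 5 clusters, or 8.93% (3.87 to 19.3%), and on U 2, or 8.70% (2.42 to 26.8%). The interval on U includes both shares of the list, and that on the scaffolds includes 4.27%. In the arm ends replicate 1 alone had 23, or 21.3%, and replicate 2 alone 6, or 5.56%, near the shares of the list.

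Strong clusters of chromosome 4 recurred nearly without exception. Of its 44 clusters in the upper part of the score ranks, from the list median up, both replicates overlapped 42, or 95.5% (84.9 to 98.7%), where the rest of the arms had 75.5%. Of its 44 clusters below that median, 7 were in both, 10 in replicate 1 alone, 13 in replicate 2 alone and 14 in neither. These made 15.9%, 22.7%, 29.5% and 31.8%, beside 11.4%, 32.3%, 6.35% and 50.0% below the median on the rest of the arms. On the scaffolds 30 of 40 clusters at or above the median were in both, or 75% (59.8 to 85.8%), and in the arm ends 36 of 64, or 56.3% (44.1 to 67.7%). On U 22 of 23 clusters had a score at or above the median and 9 of these were in both, or 40.9% (23.3 to 61.3%). Another 9 of these 22 were in neither replicate, or 40.9%, where the rest of the arms had 13.3%. None of these shares is matched for width, and clusters narrower than 2 kb were seldom in both replicates. On U 0 of 13 such clusters were, and on the rest of the arms 5.81% of 5731.

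Between the replicate lists themselves, chromosome 4 stood the other way round from the arms, as did U and, by little, the scaffolds. Of the 62 clusters of replicate 1 on chromosome 4, 52 overlapped one of replicate 2, or 83.9% (72.8 to 91.0%), and of the 67 of replicate 2, 51 overlapped one of replicate 1, or 76.1% (64.7 to 84.7%). On the rest of the arms these shares were 66.6% and 90.7%. They were 86.8% and 84.6% on the scaffolds, 81.8% and 69.2% on U, and 62.7% and 87.8% in the arm ends. Shared bases came to 60.5% of the bases covered by either replicate on chromosome 4, 73.5% on the scaffolds, 61.1% on U and 59.96% in the arm ends, with 59.3% on the rest of the arms. On chromosome 4, 16 clusters of replicate 2 lacked a partner, and their median score percentile in that list was 6.39. For the 10 such clusters of replicate 1 it was 10.8. The unshared clusters ranged from percentile 1.53 to 36.6 in replicate 1 and from 0.192 to 71.2 in replicate 2, so not all of them ranked low.

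Chromosome 4 is described first in detail, since its clusters follow one another along a single sequence of 1351857 bp. The first cluster lay at 62588 to 64964, with a series-wide score of 1.01 and replicate scores of 1.11 and 0.920. The last lay at 1235460 to 1237436, with 0.329, 0.278 and 0.430. The 62.6 kb before the first and the 114.4 kb after the last held none in the series-wide list. Replicate 2 had clusters in that final stretch, at 1285626 to 1287612 with a score of 1.03 and at 1298379 to 1299813 with 0.644. With another, at 1200930 to 1202235 and a score of 0.507, these were the replicate clusters of chromosome 4 that the series-wide list lacked.

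The highest score of chromosome 4 was at 86138 to 88794, with a series-wide score of 2.37 and replicate scores of 2.49 and 2.30. Next came 332922 to 335448, with 1.86, 1.98 and 1.35 in the same order. At 576190 to 580164 the scores were 1.65, 1.84 and 1.46. The other members of the top 5 were 678918 to 682088, with a series-wide score of 1.48, and 212526 to 215208, with 1.42. All 5 were overlapped by both replicates and were 2.5 to 4.0 kb wide. They lie apart from one another, and none starts beyond 678918, although clusters continue to 1237436.

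The widest cluster of chromosome 4, and of all members, ran from 1047982 to 1054568, with scores of 1.15, 1.34 and 1.22. A cluster of 6115 bp at 825962 to 832076 scored 0.407 and was overlapped by 3 clusters of replicate 1 and 2 of replicate 2. The next in width were 860616 to 865230, with 4615 bp and a score of 0.548, and 589992 to 593982 and 1142312 to 1146302, each of 3991 bp, with 0.961 and 0.915. Width and score therefore did not rank these clusters alike. The 5 were in both replicates.

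Of the 15 clusters of chromosome 4 in neither replicate, the highest score was 0.777, at 340714 to 341732 with a width of 1019 bp. The next 4, at 509246, 756446, 846376 and 768488 by their starts, scored 0.419, 0.393, 0.388 and 0.385. The median width of all 15 was 1315 bp, while that of the 49 in both replicates was 2529 bp. Their median score of 0.355 was below the 0.684 of the 49, but not below the 0.343 and 0.263 of clusters held by replicate 1 alone and by replicate 2 alone. Widths of the 15 reached 2363 bp.

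A run of 6 successive clusters at 148652 to 200602, a stretch of 52.0 kb, was overlapped by replicate 2 alone. Their series-wide scores were 0.0909 to 0.432. In replicate 2 the overlapping clusters scored 0.288 to 0.567, at percentiles of 0.192 to 10.5 in that list. Between 100001 and 200000 replicate 1 had 0 clusters and replicate 2 had 6. Both neighbours of the run were in both replicates: the cluster before it, at 89246 to 91784, had 0.475, 0.656 and 0.659, and the one after it, at 212526 to 215208, had 1.42, 1.31 and 1.42. The run was singled out after its values had been seen.

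Clusters were most dense in the middle of chromosome 4. In steps of 100 kb from its first base, the series-wide list had 3, 6, 2, 6, 11, 10, 8, 9, 12, 5, 9, 5 and 2 clusters, and 0 in the shorter last step. The step with 12 clusters, at 800001 to 900000, had 10 in replicate 1 and 9 in replicate 2. The median distance between neighbours was 3.80 kb, against 2.57 kb on the rest of the arms, and 20 of 87 distances were at most 1 kb. The longest stretches without a series-wide cluster were 95.8 kb at 232211 to 328033, 86.3 kb at 1146303 to 1232625 and 61.6 kb at 888317 to 949877. Replicate 2 had 1 cluster wholly inside the second of these.

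The heterochromatic scaffolds, 9.28 Mb in all, held few clusters, and on some scaffolds these lay far apart. The median distance between neighbours was 47.8 kb, and 25 of 50 distances exceeded 50 kb, whereas 1.70% did on the rest of the arms. Of these long distances 11 were on 2RHet, 9 on 3LHet, 4 on 3RHet and 1 on 2LHet, while XHet and YHet had 0. Densities differed among scaffolds, from 29.4 clusters per Mb on XHet to 3.95 on 2RHet and 3.97 on 3RHet in the series-wide list. As a class, these clusters also had many scores in the highest 10% of the list, as given above. The sparsest scaffolds did not have the largest shares of such scores, at 30.8% on 2RHet and 20% on 3RHet. The share was 50% on 2LHet, 44.4% on 3LHet, 40% on YHet and 16.7% on XHet, with few clusters on each.

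**Figure D5:**
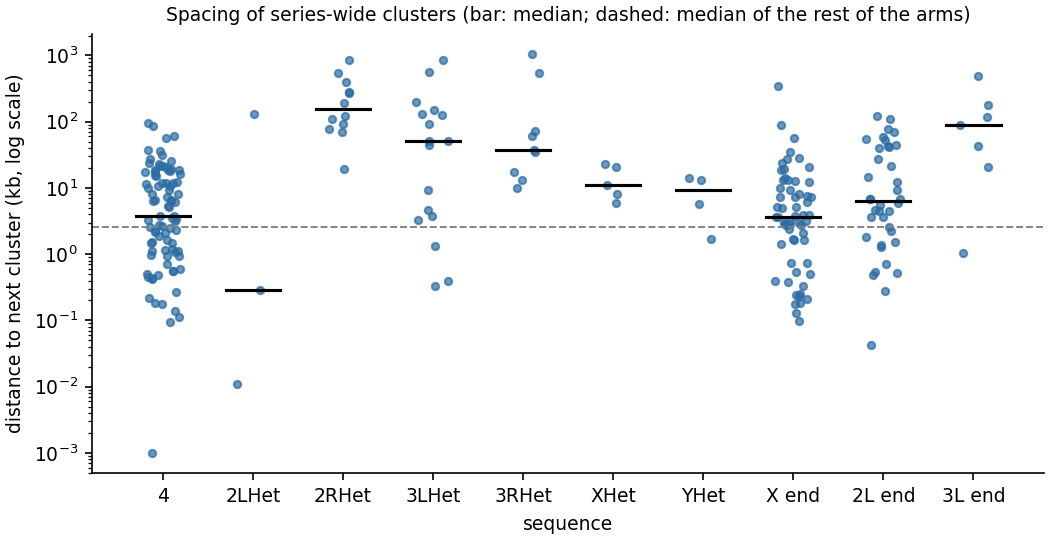
Distance in kb from each series-wide cluster to the next one on the same sequence (vertical axis, log scale), for chromosome 4, the scaffolds and the arm ends. Points are distances, bars are medians and the dashed line is the median of the rest of the arms, 2.57 kb. On 2RHet the median is 156.3 kb and on chromosome 4 it is 3.80 kb.

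The 3LHet scaffold, which belongs to the left arm of chromosome 3, had the most clusters, 18, of which 13 were in both replicates. They fell into 11 clusters at 201850 to 710728, a single one at 1569098 to 1570594, and 6 at 2137478 to 2537398. The strongest that both replicates held was at 2396922 to 2400024, with a series-wide score of 1.98 and replicate scores of 2.01 and 1.93. Another was at 458714 to 461538, with 1.82, 1.81 and 1.73. The highest series-wide score of the scaffold, 2.51 at 2137478 to 2138482, had no cluster in either replicate and a width of 1005 bp. Replicate 2 had a cluster at 1062588 to 1064357, with a score of 1.25, that the series-wide list lacked.

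On 2RHet 7 of 13 clusters were in both replicates. The strongest were at 469930 to 472654, with a series-wide score of 1.94 and replicate scores of 1.96 and 1.97, and at 390170 to 392878, with 1.85, 1.86 and 1.87. The scores of these strongest clusters were close across the 3 lists, but others on 2RHet were not: the cluster at 1334092 to 1336200 had 0.556, 0.0938 and 0.876, and the one at 198056 to 201262 had 0.796, 0.542 and 1.15. Between 472655 and 1334091 there was no cluster in any of the 3 lists, over 861.4 kb.

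On 2LHet 3 of 4 clusters were in both replicates, with the strongest at 167206 to 169994 and scores of 1.80 in each of the 3 lists. On 3RHet 5 of 10 were, and the strongest, at 1822410 to 1824856, had 1.76, 1.72 and 1.84. There 6 clusters lay within 232.1 kb at 1704574 to 1936690 and 3 at the far end, at 2473564 to 2506146, while the 1.06 Mb before the 6 held none in the series-wide list. The clusters of 3RHet were thus gathered in the later part of the scaffold.

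XHet, the shortest scaffold, had 6 clusters, all within its first 86226 bp, and none in the remaining 117.9 kb. It was the most covered scaffold, with 7.53% of bases in replicate 1 and 4.77% in replicate 2. Of its clusters, 4 were in both replicates and 2 in replicate 1 alone. The strongest lay at 59868 to 63100, with a series-wide score of 1.28 and replicate scores of 1.30 and 1.40. The widest scaffold cluster, 3897 bp at 74250 to 78146, was also on XHet and scored 0.907, 1.14 and 0.812. The second in width was on 3LHet at 203386 to 206726, with 3341 bp and a score of 0.753.

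YHet, from the Y chromosome, whose fertility genes are known to be transcribed in the testis, had 5 clusters. They lay within 44.6 kb at 300434 to 345038 and none was in the first 300.4 kb. The cluster at 300434 to 302808 had the highest score, 1.73, and a partner in replicate 2 alone, with 1.95. The one at 304478 to 306804 was in both replicates, with 1.57, 1.65 and 1.23. Of the other 3, 1 had a partner in replicate 2 and 2 had none, so the replicates shared a single YHet cluster.

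On U, 23 clusters over 10.05 Mb gave 2.29 per Mb. The 9 in both replicates were 2013 to 2681 bp wide. The strongest of them were at 6383838 to 6386254, with a series-wide score of 2.37 and replicate scores of 2.22 and 2.31, and at 5540966 to 5543196, with 2.25, 2.24 and 2.20. At 7542150 to 7544830 the scores were 1.94, 1.73 and 2.26. At 8546954 to 8549152 they were 1.62, 1.62 and 1.76, and at 6013868 to 6016062 they were 1.13, 1.15 and 1.31. These clusters of U were strong in all 3 lists.

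The 10 clusters of U in neither replicate included the top of the whole list, 3.54 at 7530948 to 7533006, and 2.86 at 4772116 to 4773116. Replicate 2 in turn had clusters on U that the series-wide list lacked, at 9472517 to 9474701 with 3.78, the highest score of replicate 2, and at 99126 to 100502 with 2.13. The whole list held 24 clusters in the highest 10% of series-wide scores that neither replicate overlapped, or 0.195% of all its clusters. The rest of the arms had 18 of them, or 0.149% of its clusters. On U the share was 3 of 23, or 13.0%, on the scaffolds 3.57%, in the arm ends 0.926% and on chromosome 4 0%. Over all 4 classes, 6 members were of this kind, or 2.18% of the 275. They were the pair on U just named, one on U at 3879424 to 3880728 with 1.24, the 3LHet cluster with 2.51, one on 2RHet at 1730780 to 1731780 with 1.63, and one on 2L at 22303678 to 22304748 with 1.49. Of these 6, 5 were 1001 to 1305 bp wide, and the one with 3.54 was 2059 bp wide. How the series-wide list came to hold them was not tested.

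The arm ends were unlike one another. In the series-wide list X had 61 clusters in its last 1 Mb, 2L had 39 and 3L had 8. Coverage over the replicates was 7.87% and 5.54% for X, 5.81% and 4.48% for 2L, and 1.02% and 1.23% for 3L, replicate 1 first. The 3L end was thus near the level of the scaffolds, and the X end lay between that of 2L and chromosome 4. The boundary at 1 Mb is not a known limit of heterochromatin: the last clusters outside it were at 21392664 on X, 22007790 on 2L and 23330018 on 3L by their starts, with scores of 0.453, 0.385 and 1.27. The first inside were at 21427696, 22014792 and 23572604, with 0.381, 0.388 and 0.478.

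On the X end, 10 clusters at 21427696 to 21501988 were followed by 343.8 kb without any in the 3 lists, and then by 51 clusters up to 22417026. The step of 100 kb with the most, at 22222828 to 22322827, had 16 in the series-wide list, of which 2 were in both replicates and 6 in neither, and their median score was 0.466. The strongest cluster was also the one nearest the centromere end, at 22413528 to 22417026, with a series-wide score of 1.92 and replicate scores of 2.11 and 1.92. It lay 5.80 kb from the last base. The widest, at 21473252 to 21478086, had 1.11, 1.19 and 1.36. The single replicate cluster of the arm ends that the series-wide list lacked was on X at 22366459 to 22367870, in replicate 1 with 0.442.

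On the 2L end, clusters were most numerous next to the boundary and most of those there were weak. The first 100 kb inside the boundary had 17 clusters with a median score of 0.373, of which 2 were in both replicates. The steps at 22211545 to 22311544 and at 22411545 to 22511544 had 4 and 3 clusters, with median scores of 1.58 and 1.69, and 3 in both replicates each. The strongest and widest cluster, 5835 bp at 22427038 to 22432872, had a series-wide score of 1.87 and replicate scores of 2.04 and 1.70. The one nearest the centromere end, at 22959226 to 22962030, had 1.44, 1.5 and 1.41. The longest stretch that all 3 lists left free was 122.3 kb, at 22304749 to 22427037.

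On the 3L end, 4 clusters at 23572604 to 23732602 and 4 at 24224044 to 24532222 stood on either side of 491.4 kb without any in the 3 lists. The strongest, at 23663564 to 23665056, had a series-wide score of 1.37 and a replicate 2 score of 3.65, and no cluster in replicate 1. The widest, at 23707436 to 23710284, had 1.20, 0.978 and 1.36. The one nearest the centromere end, at 24529628 to 24532222, had 0.835, 0.601 and 1.07. Both replicates overlapped 5 of the 8.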

How the data were processed

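The deposited files are 3 GFF3 lists of regions of significant enrichment, on FlyBase release 5 per the file headers: 1 list for each ChIP replicate and 1 series-wide list. Column 6 holds a score per region, deposited by the authors, and its scale is not given in the sources used here. Neither are the aligner, the caller, its threshold and the way replicates were combined. Because sample depth is unknown, no interval covers read sampling. No input values were used.

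Members were taken by the sequence name and start. Coverage is the bases under clusters over the sequence length of the headers. Clusters overlap when they share at least 1 bp. Score percentiles are ranks within 1 list. Alternatives changed the reference arms, the score, width and overlap limits and the length of the arm ends. Shares have 95% Wilson intervals, and values over replicates have the SD and an exact sign-flip permutation test. The overlap code was tested on simulated data.

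The members, classes and naming rule were chosen with earlier results of these data known. The rule named the highest-scoring and widest clusters of each class, those in both or neither replicate, those at the boundaries, replicate clusters absent from the series-wide list, and the longest free stretches. The gene table at hand is of Release 6, so no gene or sequence was assigned to a cluster. Values were computed in Python 3.11.15 with pandas 2.3.3, numpy 2.4.6 and scipy 1.17.1, and plotted with matplotlib 3.10.9.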

Additional observations from a re-analysis of the deposited data

How the results depend on the processing

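Leaving out the runs with a single replicate, which cannot leave the SD at n = 2, 31 settings kept a value within the SD between replicates and 22 moved it. The SD of the share overlapped is 0 on the scaffolds and U, so any change counts as moved there. Keeping clusters from the median score up, which leaves fewer replicate clusters to overlap, moved the share overlapped from 69.3% to 57.95% on chromosome 4, from 67.9% to 66.3% on the scaffolds and from 47.8% to 47.7% on U, and the coverage ratio from 0.0137 to 0.0208 on U and from 0.244 to 0.269 in the arm ends. Keeping series-wide clusters no narrower than any replicate cluster, from 1301 bp, the share became 76.97%, 76.0%, 55.0% and, from 52.3%, 65.9% for chromosome 4, the scaffolds, U and the arm ends. As an alternative chosen after seeing the data, replicate 1 cut by score to as many clusters as replicate 2 gave 59.1% and 61.6% on chromosome 4 and the scaffolds. With that list, 39 of 41 replicate 1 clusters of chromosome 4 had a partner and 40 of 67 of replicate 2. These were 95.1% and 59.7%, beside 74.6% and 82.5% on the rest of the arms. Without XHet the scaffold share was 66.0%. The share overlapped on the rest of the arms under these score, width and length limits is not given here. The shifts therefore do not show how a class compares with the arms. In clusters per megabase the ratio was 0.0190 on U and 0.299 in the arm ends. Arm ends of 2 Mb and 0.5 Mb gave ratios of 0.439 and 0.190, and score percentiles of 50.7 and 51.5 in place of 62.2, near the 49.8 of the arms, so the higher rank of the arm ends depends on their length. The mean percentile in place of the median was 64.4 on the scaffolds, 85.9 on U and 56.6 in the arm ends, and the series-wide list gave 86.3 on U. For the other shifts the cause was not tested. Each coverage ratio stayed below 1 under every setting run. No paired analysis was possible because pairing ChIP with input samples needs input values, and none were used. Classes of sequence were compared within each replicate. Depth is unknown, so what it limits was not measured.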

Other observations

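Clusters of the 4 classes that both replicates held were narrower than those of the rest of the arms, with a median of 2485 bp over 133 members against 3293 bp over 5224 clusters, and their median score percentile was 82.9 against 77.6. Chromosome 4, with 49 of these members, did not share the higher percentile, at 75.1, while the scaffolds had 89.5, U 89.4 and the arm ends 86.6. Among these shared clusters, replicate 2 gave the higher score percentile in 20 of 49 on chromosome 4, in 16 of 33 on the scaffolds, in 6 of 9 on U and in 14 of 42 in the arm ends, or 40.8%, 48.5%, 66.7% and 33.3%, where the rest of the arms had 28.6%. Clusters narrower than 2 kb rarely had a partner in both replicates: 6 of 40 did on chromosome 4, 2 of 23 on the scaffolds, 0 of 13 on U and 5 of 61 in the arm ends, beside 5.81% of 5731 on the rest of the arms.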
